A study of Mus musculus with 2 samples.

Results

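Corticotropin-releasing hormone (Crh), urocortin 3 (Ucn3), their receptors Crhr1 and Crhr2 and the CRH-binding protein Crhbp were followed through neurons of the mouse paraventricular hypothalamus (PVH). They were chosen by name and make up 5 of the 31053 gene rows. CRH neurons of the PVH drive the pituitary to release ACTH, and so set glucocorticoid output from the adrenal gland. CRH binds mainly CRHR1, urocortin 3 binds CRHR2 selectively, both receptors couple to Gs and cyclic AMP, and the binding protein holds CRH away from its receptors. Urocortin 3 neurons near the PVH, many of which also make thyrotropin-releasing hormone (Trh), are known for restraining food intake.

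The material was single-nucleus RNA from the PVH of 17 mice, 4 weeks old. Sim1-Cre, which is active in most PVH neurons, was present in all of them together with a Sun1-GFP reporter of the nuclear envelope, and GFP-positive nuclei were sorted. The mice were 4 with a floxed Otp allele (Otp fl/+), 6 with the Otp Q153R allele (Otp Q153R/+) and 7 with neither, Otp being a homeodomain factor of PVH development. All nuclei went into 1 library, where 3 hashtag rows named KD, Q153R and Ctrl mark the pools, so no barcode is shared between libraries. Otp fl/+ is matched to the name KD by elimination alone, so the nuclei are called labelled KD. The mice of a genotype were pooled, so there is 1 reading per genotype and no test between genotypes. Each interval given here is an exact 95% interval for counting error only, and it does not cover differences between mice. Unique molecular identifiers (UMIs) of 1 nucleus are not independent of each other.

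Of 6173 barcodes, 4904 passed the filters with exactly 1 tag, and 4760 of those were neurons, 1300 labelled KD, 1571 labelled Q153R and 1889 labelled Ctrl. Median depth was 6030.5 UMIs in neurons labelled KD, 4683 in those labelled Q153R and 5455 in those labelled Ctrl. The share of neurons with at least 3 Xist UMIs and no Y-linked UMI was 80.8% in the KD pool, 47.4% in the Q153R pool and 65.4% in the Ctrl pool, so the pools also differ in their make-up by sex. The class of GABAergic neurons made up 7.69% of neurons labelled KD, 4.46% of those labelled Q153R and 10.3% of those labelled Ctrl, and pools are compared outside it. The PVH marker Sim1 stood at 454.5 CPM (UMIs per 1000000 UMIs) in neurons and at 15.2 CPM in the 144 nuclei with glial markers. Otp, the altered gene, stood at 81.5 CPM in non-GABAergic neurons labelled KD, 113.4 CPM in those labelled Q153R and 51.1 CPM in those labelled Ctrl. Relative to Ctrl, Otp was at 1.60 (1.42–1.80) in KD and 2.22 (1.99–2.485) in Q153R. Otp was thus higher in the nuclei labelled KD than in Ctrl, which goes against a name that reads as a knockdown, and each direction given for that pool rests on the label. UMIs over the whole gene do not tell an intact from a deleted or mutated allele.

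On the GRCm38 build, GENCODE vM21 places Crh on chromosome 3 (19693401 to 19695396, minus strand, 2 exons) and Ucn3 on chromosome 13 (3940688 to 3945349, minus strand, 2 exons). Crhr1 lies on chromosome 11 (104132855 to 104175523, plus strand) and Crhr2 on chromosome 6 (55090049 to 55133016, minus strand), each with 13 exons in its first listed transcript. Crhbp lies on chromosome 13 (95431371 to 95444924, minus strand, 7 exons). No other annotated gene overlaps any of them. Levels are not compared between genes, because use of intron reads was not given in the sources used here, while the receptor genes are far longer than the ligand genes.

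RefSeq promoter windows, 250 bases before to 50 bases after a start on GRCm38.p6, matched 4 of the 5 genes. The windows of Ucn3 and Crhr2 are shown because these are the ligand and the receptor whose level differed most between a mutant pool and Ctrl. Capitals mark each TAAT on either strand (ATTA on the strand printed), the core that homeodomain proteins of the Otp type bind. The window of Ucn3 is chr13:3945300-3945599 and that of Crhr2 is chr6:55132967-55133266, both minus strand and printed 5′ to 3′.
Ucn3: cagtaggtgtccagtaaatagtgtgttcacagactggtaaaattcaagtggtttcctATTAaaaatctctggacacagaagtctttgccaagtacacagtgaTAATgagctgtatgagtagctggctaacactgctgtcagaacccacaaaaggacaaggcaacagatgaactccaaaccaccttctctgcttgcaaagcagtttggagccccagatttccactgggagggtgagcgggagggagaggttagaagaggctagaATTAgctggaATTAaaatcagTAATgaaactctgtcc
Crhr2: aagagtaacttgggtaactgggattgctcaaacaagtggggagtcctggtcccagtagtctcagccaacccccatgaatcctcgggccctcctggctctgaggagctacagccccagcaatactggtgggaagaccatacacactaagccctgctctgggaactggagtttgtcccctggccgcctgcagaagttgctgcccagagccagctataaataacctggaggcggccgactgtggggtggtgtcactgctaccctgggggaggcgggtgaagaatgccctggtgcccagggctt
The Ucn3 window held 5 matches to TAAT, the Crhbp window 3, and those of Crhr2 and Crhr1 none. Over 27025 promoters of the same length the mean was 1.43 matches, and 58.3% held at least 1. The longer TAATTA, which always holds a TAAT, was in none of the 4 windows and in 5.31% of all promoters. The cyclic AMP response element TGACGTCA was in none of the 4 and in 1.88% of all. The NR4A element AAAGGTCA was in none and in 1.46% of all, searched on both strands as were the others. Crhr1 had the window richest in G and C of the 4, at 75%, against 59.0% in Crhr2, 48.0% in Crhbp and 44.7% in Ucn3, with a median of 52.7% over all promoters. A match to these letters is a description of the window and not a bound site.

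Crh, the ligand of the stress axis, lay mostly outside the named peptide classes and peaked in neurons with a moderate amount of Avp. It gave 1015 UMIs in the 4760 neurons, or 37.05 CPM (34.8–39.4). It was seen in 519 nuclei, of which 209 held at least 2 UMIs and 41 at least 5, and the highest nucleus held 14. Nuclei with at least 2 UMIs carried 69.5% of all Crh UMIs. Neurons were sorted into overlapping classes by their own UMIs: Oxt or Avp (at least 5 UMIs and 20 per 10000), Trh (at least 2), Sst (at least 5) and GABA (at least 3 of Gad1, Gad2 and Slc32a1), with 3441 neurons in none. The neurons of no class held 85.3% of the Crh UMIs.

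In the order of levels, Crh stood at 44.7 CPM (41.7–47.7) in neurons of no class and at 35.6 CPM (28.4–44.1) in the GABA class. It stood at 26.3 CPM (18.1–36.9) in the Avp class, 10.3 CPM (5.77–17.0) in the Sst class, 6.87 CPM (3.85–11.3) in the Trh class and 6.29 CPM (2.53–12.95) in the Oxt class. The intervals of no class and GABA overlap, as do those of GABA and Avp, while Sst, Trh and Oxt lie below all of these and overlap each other. This order is that of the summed pools, and neurons of no class were highest in the Ctrl pool alone. In the KD pool the Avp class had 38.6 CPM against 33.6 CPM in no class. In the Q153R pool the GABA class had 66.5 CPM against 51.4 CPM in no class, and the Avp class 4.87 CPM. Against all other neurons, the ratio was 2.40 (2.01–2.87) for neurons of no class and 0.958 (0.757–1.20) for GABA. With class thresholds doubled, the GABA ratio was 0.417 (0.199–0.770), an interval that no longer includes 1, so the place of GABA in this order depends on the threshold. The ratio was 0.267 (0.149–0.443) for Sst, 0.173 (0.0966–0.287) for Trh and 0.164 (0.0657–0.339) for Oxt, the last with 0 UMIs in the KD pool, 0 in the Q153R pool and 7 in the Ctrl pool. With every nucleus thinned to 2000 UMIs, Crh was seen in 6.99% of the neurons of no class, 6.96% of the GABA class and 3.37% of 89 glial-marker nuclei (0.701–9.54%). At that depth 3.38% of the Avp class, 2.03% of the Oxt class, 1.52% of the Trh class and 0.766% of the Sst class held a UMI. The shares of the Oxt, Trh and Sst classes lie below that of the glial-marker nuclei, and that of the Avp class is about the same. At full depth, at least 2 Crh UMIs were held by 7 nuclei of the Avp class, 3 of Oxt, 3 of Sst and 1 of Trh. The shares of these 4 classes are therefore read neither as background nor as expression. The interval of the glial-marker nuclei also takes in the shares of the GABA class and of no class, so at 2000 UMIs the shares alone do not set any class apart from glia. In summed UMIs at full depth, glial-marker nuclei stood at 15.2 CPM of Crh, a ratio of 0.410 (0.150–0.895) to neurons.

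**Figure D1:**
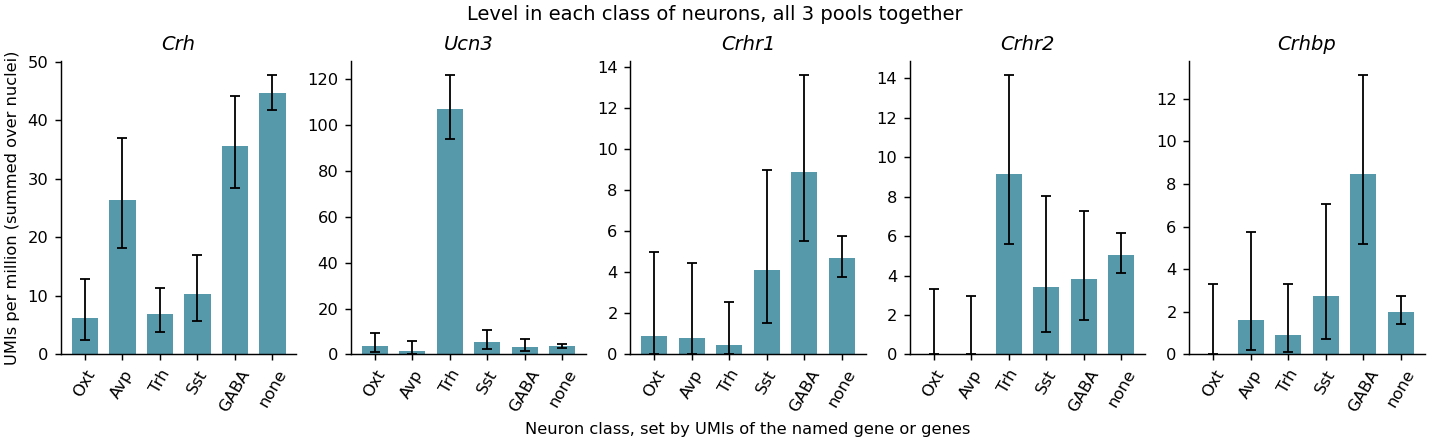
CPM of each gene in neurons of each class, summed over the 3 pools. Bars are summed levels and lines exact Poisson 95% intervals of counting error. Ucn3 stands at 107.2 CPM in the Trh class and at 5.50 CPM or less in all others. Crh is highest in neurons of no class in this sum, though not in the KD or the Q153R pool alone.

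Across the range of Avp, the vasopressin gene, Crh was highest in the middle. Neurons with no Avp UMI had 33.3 CPM of Crh (30.1–36.6). Those with 5 to 10 Avp UMIs per 10000 had 111.5 CPM (93.6–131.9), and those with 10 to 20 had 291.4 CPM (235.8–356.2), with a Crh UMI in 29.4% of 109 nuclei. Above that, Crh stood at 105.1 CPM at 20 to 50, where 9 of 46 nuclei held a Crh UMI and 6 of them at least 2, and at 5.99 CPM (2.20–13.0) at 50 or more, where 3 of 184 nuclei held a Crh UMI. The peak at 10 to 20 was present in each pool, at 220.1 CPM in nuclei labelled KD, 336.6 CPM in those labelled Q153R and 300.1 CPM in those labelled Ctrl. Banded by Oxt, the oxytocin gene, in the same way, Crh in the pools together also rose and then fell, at lower levels. It stood at 40.97 CPM with no Oxt UMI, 24.15 CPM under 2, 44.8 CPM at 2 to 5 and 56.8 CPM at 5 to 10. The 10 to 20 band of Oxt had 68.3 CPM of Crh (41.1–106.7) at a median depth of 1840 UMIs, and the 20 to 50 band 10.3 CPM. In the Ctrl pool that 10 to 20 band stood at 18.9 CPM, so this peak was not present in each pool. Parvocellular CRH neurons are known to make some vasopressin, and magnocellular neurons large amounts. The bands were chosen after the data were seen. Median depth was 2677 UMIs in the 10 to 20 band of Avp, with a median of 3 Avp UMIs, and its part in the peak was not tested. The Avp class, which starts at 20 per 10000, therefore cuts through the decline: its ratio to other neurons was 0.700 (0.479–0.990), but with class thresholds halved it was 2.27 (1.86–2.75). The upper bound also passed 1 with tags at 1.5 times their threshold (1.08) and at 1000 genes or more (1.03).

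**Figure D2:**
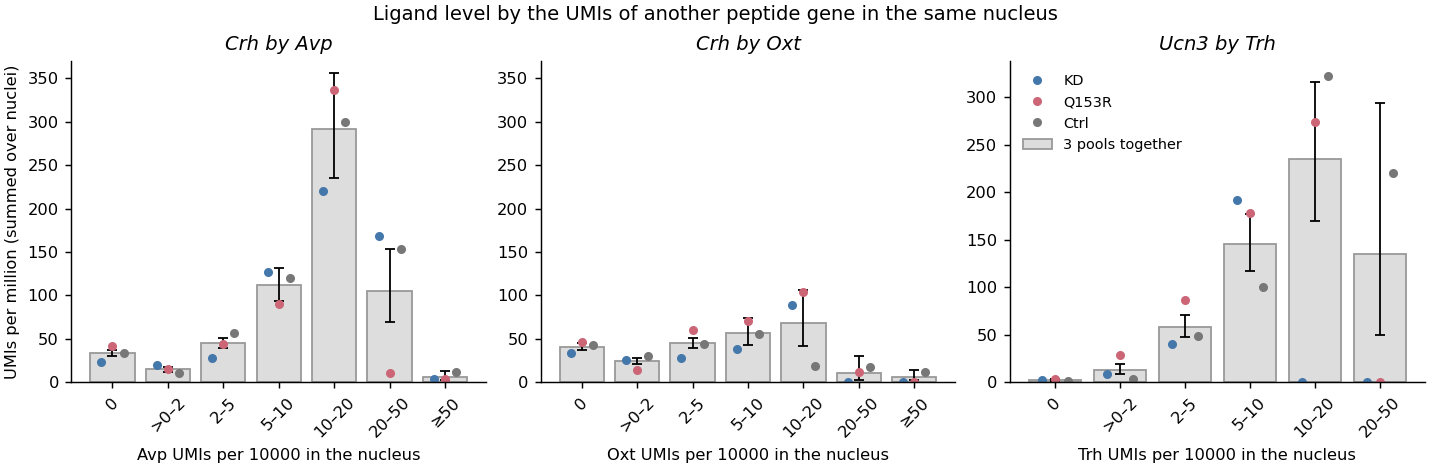
CPM of Crh by the Avp or Oxt UMIs per 10000 of the same nucleus, and of Ucn3 by the Trh UMIs. Grey bars are all neurons with exact Poisson 95% intervals and points are the pools. Crh reaches 291.4 CPM at 10 to 20 Avp UMIs per 10000 against 68.3 CPM in the same band of Oxt, and Ucn3 reaches 234.7 CPM at 10 to 20 Trh UMIs per 10000 and stands at 134.9 CPM at 20 to 50.

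Between genotypes, Crh was lower in the nuclei labelled KD than in Ctrl, and about level with Ctrl in those labelled Q153R. Over neurons outside the GABA class it stood at 29.5 CPM (25.8–33.6) in nuclei labelled KD, 41.4 CPM (36.9–46.2) in those labelled Q153R and 39.99 CPM (36.1–44.2) in those labelled Ctrl. The ratio was 0.737 (0.623–0.870) for KD over Ctrl, 1.04 (0.889–1.20) for Q153R over Ctrl and 1.40 (1.18–1.67) for Q153R over KD, and 2 of these contrasts share the Ctrl pool. Thinned to 2000 UMIs, 3.81% of nuclei labelled KD (2.77–5.10%), 7.07% of those labelled Q153R (5.77–8.54%) and 6.30% of those labelled Ctrl (5.14–7.62%) held Crh. The order of the pools was the same in neurons of no class, with 33.6 CPM in nuclei labelled KD, 51.4 CPM in those labelled Q153R and 48.6 CPM in those labelled Ctrl. The Avp class was an exception. In the Avp class Crh had 16 UMIs in 70 nuclei labelled KD, 2 UMIs in 83 labelled Q153R and 15 UMIs in 74 labelled Ctrl. The ratio there was 1.10 (0.511–2.40) for KD over Ctrl and 0.139 (0.0154–0.598) for Q153R over Ctrl. Those UMIs lay in 5 nuclei labelled KD, 2 labelled Q153R and 5 labelled Ctrl, so few nuclei decide this value. In sums over nuclei, fewer nuclei with Crh and less RNA in each cannot be told apart.

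**Figure D3:**
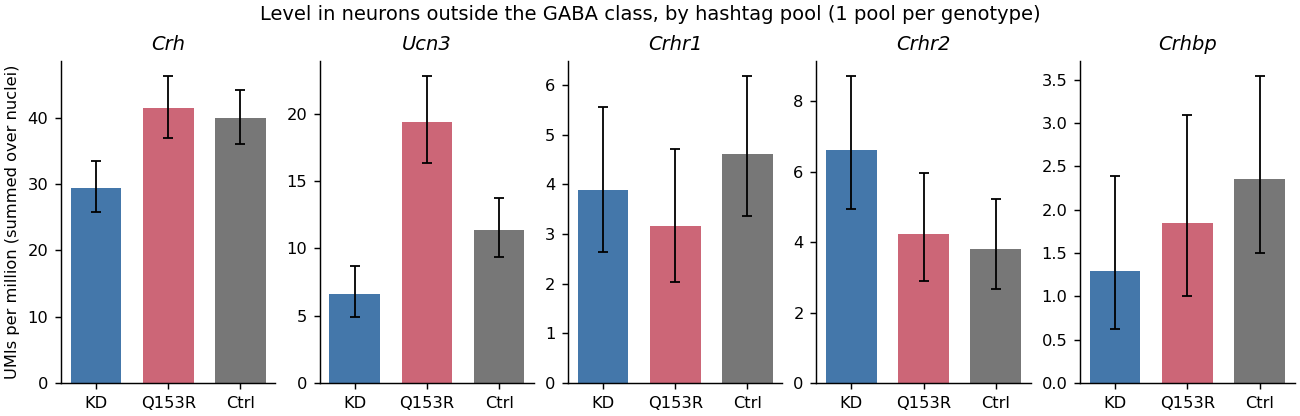
CPM of each gene in neurons outside the GABA class, for the pools labelled KD, Q153R and Ctrl. Bars are summed levels of 1 pool each and lines exact Poisson 95% intervals of counting error. Crh is lowest in KD at 29.5 CPM, Ucn3 is highest in Q153R at 19.4 CPM, and the intervals of Crhr1 and Crhbp overlap in all pools. Each panel has its own vertical scale.

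Ucn3, the ligand of Crhr2, was a gene of Trh neurons in these data. It gave 317 UMIs in 113 neurons, or 11.6 CPM (10.3–12.92), and 59 nuclei held at least 2 UMIs. The Trh class had 107.2 CPM (93.9–121.8) against 3.29 CPM in all other neurons, a ratio of 32.6 (25.25–42.35), and it held 73.8% of the UMIs. The same class stood at 75.9 CPM in the KD pool, 155.5 CPM in the Q153R pool and 89.5 CPM in the Ctrl pool. The other neurons had 2.40 CPM in the KD pool, 5.52 CPM in the Q153R pool and 2.39 CPM in the Ctrl pool, so the Trh class was higher in every pool. Every other class was at 5.50 CPM or below, and their intervals overlap. At 2000 UMIs, 11.6% of the Trh class (8.33–15.55%) held Ucn3 and 0.598% of neurons of no class. Of 89 glial-marker nuclei none did, which allows a share of up to 3.37% when taken as 3 counts. Ucn3 went with the amount of Trh, with 2.22 CPM at no Trh UMI, 58.4 CPM at 2 to 5 per 10000, 145 CPM at 5 to 10 and 234.7 CPM (169.9–316.2) at 10 to 20. At 20 to 50 it stood lower, at 134.9 CPM (49.5–293.6) from 6 UMIs in 18 nuclei, an interval that overlaps that of the band before. In the KD pool Ucn3 had 0 UMIs in both of these upper bands, which held 8 and 2 nuclei, so the order of levels at high Trh rests on the Q153R and Ctrl pools at 10 to 20 and on Ctrl alone above.

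In summed UMIs, Ucn3 was higher in nuclei labelled Q153R and lower in those labelled KD than in Ctrl. The KD interval included 1 when nuclei with Ucn3 were counted, and each interval did so in some subset of nuclei. It stood at 6.62 CPM (4.93–8.705) in nuclei labelled KD, 19.4 CPM (16.4–22.8) in those labelled Q153R and 11.4 CPM (9.36–13.7) in those labelled Ctrl. The intervals of the 3 pools do not overlap, with Q153R highest and KD lowest. The ratio was 0.582 (0.409–0.817) for KD over Ctrl, 1.70 (1.32–2.20) for Q153R over Ctrl and 2.93 (2.12–4.11) for Q153R over KD. Within the Trh class, Ucn3 was seen in 8 of 71 nuclei labelled KD, 30 of 121 labelled Q153R and 22 of 156 labelled Ctrl. The ratio in that class was 0.847 (0.564–1.25) for KD over Ctrl and 1.74 (1.30–2.33) for Q153R over Ctrl. Outside the Trh class it was 0.721 (0.334–1.496) for KD and 2.315 (1.34–4.09) for Q153R. Trh itself stood at 41.4 CPM in nuclei labelled KD, 70.02 CPM in those labelled Q153R and 70.86 CPM in those labelled Ctrl. The Trh class made up 5.46% of neurons labelled KD, 7.70% of those labelled Q153R and 8.26% of those labelled Ctrl. With nuclei removed whose neighbours carry many multiple tags, the ratio was 1.35 (0.973–1.875) for Q153R over Ctrl and 0.362 (0.209–0.599) for KD over Ctrl. With every nucleus weighted equally it was 1.08 for Q153R over Ctrl and 0.352 for KD over Ctrl. The Q153R value was above 1 in both, with an interval that includes 1 where one could be given. Among nuclei with Xist alone it was 0.810 (0.543–1.20) for KD over Ctrl and 1.97 (1.38–2.83) for Q153R over Ctrl.

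The other urocortins were near the limit of detection. Ucn gave 1 UMI and Ucn2 gave 2 UMIs in all 4760 neurons, in which 3 UMIs amount to 0.1095 CPM.

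Of the receptors, Crhr1, which binds CRH and urocortin 1, was most abundant in GABAergic neurons summed over the pools. It had 1 UMI in the Trh class at the threshold used. It gave 120 UMIs in 106 neurons, 4.38 CPM (3.63–5.24), with 13 nuclei at 2 UMIs or more and none over 3. The GABA class had 8.91 CPM (5.51–13.6), a ratio of 2.25 (1.34–3.64) to other neurons, with 8.35 CPM in the KD pool, 2.89 CPM (1 UMI) in the Q153R pool and 10.8 CPM in the Ctrl pool. The other neurons had 3.89 CPM in the KD pool, 3.165 CPM in the Q153R pool and 4.61 CPM in the Ctrl pool, so the GABA class was not above them in Q153R. Neurons of no class had 4.69 CPM (3.78–5.76) and the Sst class 4.12 CPM (1.51–8.97), and all 3 intervals overlap. The Oxt, Avp and Trh classes had 1 UMI each, and the ratio of the Trh class to other neurons was 0.0971 (0.00244–0.551). With class thresholds halved the Trh ratio was 0.530 (0.257–0.987), and with them doubled 0 (0–1.13), an interval that includes 1. At the main thresholds the ratio was 0.175 (0.00440–0.995) for Avp and 0.198 (0.00498–1.13) for Oxt, which includes 1. The Avp interval includes 1 too with tags at 1.5 times their threshold (upper bound 1.07), at 1000 genes or more (1.004), with class thresholds doubled (1.19) and in nuclei of 1 class alone (1.02). Outside the GABA class Crhr1 stood at 3.89 CPM (2.63–5.56) in nuclei labelled KD, 3.165 CPM (2.03–4.71) in those labelled Q153R and 4.61 CPM (3.37–6.17) in those labelled Ctrl. The ratio was 0.844 (0.513–1.37) for KD over Ctrl and 0.686 (0.400–1.15) for Q153R over Ctrl. Both intervals include 1. Over all neurons the Q153R ratio was 0.590 (0.354–0.957), and thinned to 2000 UMIs outside the GABA class it was 0.3205 (0.106–0.821), from 5 nuclei labelled Q153R and 18 labelled Ctrl.

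Crhr2, the receptor of urocortin 3, was absent from the UMIs of Oxt and Avp neurons and present among Trh neurons. It gave 129 UMIs, 4.71 CPM (3.93–5.595), and no nucleus had more than 3. The Trh class had 9.16 CPM (5.60–14.15), a ratio of 2.12 (1.25–3.435), with 7.99 CPM in the KD pool, 7.27 CPM in the Q153R pool and 11.1 CPM in the Ctrl pool. These rest on 4 UMIs in KD, 5 in Q153R and 11 in Ctrl. Other neurons had 6.19 CPM in the KD pool, 3.87 CPM in the Q153R pool and 3.18 CPM in the Ctrl pool, so the gap was widest in Ctrl and small in KD. Neurons of no class had 5.05 CPM (4.10–6.16), the GABA class 3.82 CPM (1.75–7.25) and the Sst class 3.435 CPM (1.115–8.02), whose intervals overlap. The Oxt class had 0 UMIs in 157 nuclei and the Avp class 0 in 227. Taken as 3 counts, these zeros allow up to 2.695 CPM in the Oxt class against 4.91 CPM in other neurons, and up to 2.39 CPM in the Avp class against 4.935 CPM in other neurons. Banded by Trh, Crhr2 stood at 3.78 CPM (3.03–4.66) with no Trh UMI, 9.98 CPM (5.91–15.8) under 2 per 10000, 9.445 CPM (5.40–15.3) at 2 to 5 and 10.7 CPM (4.30–22.0) at 5 to 10. These 3 bands with Trh overlap, and the next, at 10 to 20, held 1 UMI in 46 nuclei.

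Crhr2 was higher in the nuclei labelled KD than in Ctrl. Outside the GABA class it stood at 6.62 CPM (4.93–8.705) in nuclei labelled KD, 4.22 CPM (2.89–5.96) in those labelled Q153R and 3.79 CPM (2.67–5.23) in those labelled Ctrl. The ratio was 1.745 (1.12–2.74) for KD over Ctrl, 1.11 (0.671–1.835) for Q153R over Ctrl and 0.637 (0.396–1.01) for Q153R over KD. In neurons of no class the KD ratio was 2.075 (1.26–3.496), from 46 UMIs in 35 nuclei labelled KD against 26 UMIs in 21 labelled Ctrl. In the Trh class it was 0.722 (0.168–2.435), from 4 UMIs labelled KD and 11 labelled Ctrl. The KD ratio was 1.28 (0.750–2.20) among nuclei with Xist alone, a set in which the interval includes 1. Thinned to 2000 UMIs it was 1.99 (0.787–5.28), from 12 nuclei labelled KD and 8 labelled Ctrl.

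Crhbp, which sequesters CRH, was scarce and most abundant in GABAergic neurons. It gave 67 UMIs in 44 neurons, 2.446 CPM (1.895–3.11), with 1 nucleus at 8 UMIs. The GABA class had 8.48 CPM (5.18–13.1) from 20 UMIs in 7 nuclei, a ratio of 4.52 (2.54–7.78). By pool these were 6 UMIs labelled KD, 9 labelled Q153R and 5 labelled Ctrl, with 5 of the 6 labelled KD in 1 nucleus and 8 of the 9 labelled Q153R in 1 nucleus. The Sst class had 2.75 CPM (0.749–7.04), neurons of no class 2.01 CPM (1.43–2.75), the Avp class 1.59 CPM, the Trh class 0.916 CPM and the Oxt class 0 UMIs, and their intervals overlap. Outside the GABA class Crhbp stood at 1.30 CPM (0.623–2.39) in nuclei labelled KD, 1.85 CPM (1.01–3.10) in those labelled Q153R and 2.36 CPM (1.495–3.54) in those labelled Ctrl. The ratio was 0.550 (0.234–1.20) for KD over Ctrl and 0.783 (0.372–1.59) for Q153R over Ctrl. Both intervals include 1, so at this depth no difference could be detected. At 2000 UMIs the share of neurons with a UMI of Crhr1, Crhr2 or Crhbp was 1.39% or less in every class, which is below the limit of 3.37% that 3 of 89 glial-marker nuclei would give. Shares of nuclei with a receptor are therefore not read as the share of nuclei expressing it.

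The background of these comparisons is the fold of 13916 genes with at least 50 UMIs outside the GABA class. For KD over Ctrl, 2.46% of them were at 1.5-fold or more higher and 2.87% lower. For Q153R over Ctrl these shares were 2.12% and 3.33%, and for Q153R over KD 3.08% and 3.59%. Of the 4 members with that many UMIs, Crhr2 was higher and Ucn3 lower at this fold in KD over Ctrl, and Ucn3 was higher in Q153R over Ctrl. In Q153R over KD, Ucn3 was higher and Crhr2 lower. Crhbp, with 47 UMIs, did not enter.

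Ligand and receptor were seldom seen in the same neuron. Of 626 neurons with Crh or Ucn3 and 209 with Crhr1 or Crhr2, 13 held both, which is 2.08% of the ligand nuclei and 6.22% of the receptor nuclei. The odds ratio was 0.426 (0.222–0.752), with 3 such nuclei in the KD pool, 2 in the Q153R pool and 8 in the Ctrl pool, all below 1 in odds ratio. By pool it was 0.336 (0.0667–1.045) in KD, 0.2243 (0.0263–0.864) in Q153R and 0.6735 (0.277–1.42) in Ctrl. Thinned to 2000 UMIs it was 0.348 (0.0412–1.315). The pair furthest apart was Crh and Crhr2, with 1 neuron holding both where 11.45 would fall by independence, an odds ratio of 0.0768 (0.00192–0.440). Crh and Ucn3 were both seen in 6 neurons against 12.3 by independence (0.452, 0.161–1.02), and Crh and Crhr1 in 10 against 11.6 (0.848, 0.392–1.64). At 2000 UMIs each, the intervals of all 10 pairs of members include 1, with 3 neurons or fewer holding any pair. Median depth of the nuclei with a UMI was 4880 for Crh, 5975 for Ucn3, 7413 for Crhr1, 6459 for Crhr2 and 6204 for Crhbp, against 5320 over neurons.

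The nuclei that held each member differed in their transmitter and peptide genes. Here and below, ratios are nuclei with the gene over nuclei with 0 UMIs of it, each with its interval. For these ratios, nuclei with Crh or Ucn3 are those with at least 2 UMIs of it. Nuclei with Crhr1, Crhr2 or Crhbp are those with at least 1, so ligand and receptor sets are not alike. Nuclei with at least 2 Ucn3 UMIs had 535.5 CPM of Trh against 47.7 CPM in nuclei with none, and 47 of the 59 were in the Trh class. They had 31.5 CPM of Slc17a6, the vesicular glutamate transporter of the hypothalamus, against 134.1 CPM (ratio 0.235, 0.128–0.395), and 0 UMIs of Gad2, which makes GABA, against 66.2 CPM. Nuclei with at least 2 Crh UMIs had 135 CPM of Slc17a6 against 133.4 CPM in nuclei with none (1.01, 0.8505–1.196). Their Gad2 level was 81.55 CPM against 62.97 CPM (1.295, 1.03–1.61), whereas Gad1 was 8.44 CPM against 18.8 CPM (0.448, 0.203–0.857) and Slc32a1, the vesicular GABA transporter, 2 UMIs (0.169, 0.0204–0.616). Crhbp stood at 7.50 CPM in nuclei with at least 2 Crh UMIs against 2.365 CPM in nuclei with none (3.17, 1.31–6.67), from 8 UMIs. Counted by nuclei, Crh and Crhbp were both seen in 7 neurons against 4.80 by independence, an odds ratio of 1.55 (0.581–3.55), an interval that includes 1. Nuclei with Crhbp had 64.5 CPM of Gad1 against 17.2 CPM (3.75, 2.27–5.86), and nuclei with Crhr1 had 35.6 CPM against 17.2 CPM (2.07, 1.37–3.01). Nuclei with Crhr2 had 102.6 CPM of Trh against 55.7 CPM (1.84, 1.45–2.32).

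Nuclei with Crh shared a set of other genes in all 3 pools. With at least 200 UMIs, 231 of 10457 genes (2.21%) were at 2-fold or more above nuclei without Crh in all 3 pools. The 10 with the highest lowest-pool ratio were Ism1, a secreted protein, at 10.2 (8.62–12.1), Rasd1, a Ras-like GTPase induced by glucocorticoids, at 8.40 (6.53–10.7), and Sv2c, a synaptic vesicle protein, at 8.61 (8.05–9.21). Next came Adamts1 (a secreted protease), Pim1 (a kinase), Gem (a small GTPase), Nptx2 (a pentraxin of excitatory synapses), Hs3st2 (a heparan sulfate sulfotransferase), Tiparp and Fosb. Sv2c stood at 1127.6 CPM in nuclei with Crh against 130.9 CPM in those without, and was seen in 178 of the 209. The ratio of Sv2c was 9.11 in the KD pool, 7.02 in the Q153R pool and 9.75 in the Ctrl pool. Of the 231 genes, 206 were also called with the neighbours of multiple-tag nuclei removed. With nuclei taken at 1 Crh UMI or more, 122 genes were called, 119 of them among the 231.

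Nuclei with Ucn3 had 96 such genes (0.918%). Fam20a, a pseudokinase of the secretory pathway, stood at 130.5 CPM against 6.27 CPM, a ratio of 20.8 (15.2–28.2) that was 20.7 in KD, 21.7 in Q153R and 22.3 in Ctrl. Penk, the precursor of enkephalins, followed at 576 CPM against 36.5 CPM (15.8, 13.7–18.15), then Nxph1, a ligand of neurexins, at 3708 CPM against 287.8 CPM (12.9, 12.2–13.6) and Trh at 11.2 (9.73–12.9). Nxph1 was seen in 58 of the 59 nuclei and Penk in 33. The others were Cntnap5c, Adra1a (the alpha-1A adrenoceptor), Gm28928, Itga6 (an integrin), Plpp4 and Ltbp1, at 4.56 to 7.99. Of the 96 genes, 38 were also called with the neighbours of multiple-tag nuclei removed. With nuclei taken at 1 Ucn3 UMI or more, 64 genes were called, 51 of them among the 96.

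Nuclei with Crhr2 had 62 such genes of 10458 (0.593%), led by Rgs22 at 5.26 (3.86–7.03), Hydin, a gene of motile cilia, at 5.86 (3.92–8.50), and Fras1, an extracellular matrix protein, at 4.94 (4.36–5.57). Pde1c, which breaks down cyclic nucleotides, had 377.1 CPM against 93.5 CPM (4.03, 3.55–4.56), and was followed by Cd36, a fatty acid transporter, Gm13481, 3110039M20Rik, Map3k15, D430036J16Rik and Qrfpr, the receptor of the peptide QRFP. With those neighbours removed, 45 of the 62 were also called. For Crhr1 the number was 6 (0.0574%), namely Pnldc1, Fgf9 (a growth factor), Ano4, Gm12371, Fndc5 and Gipc2, at 2.17 to 2.64. Of these 6, 3 were also called with the neighbours removed. For Crhbp it was 12 (0.115%), led by Dlx1as, Nudt1, Klf6, Mitf, Slc31a2, Cdk4, 4930565N06Rik, Ccdc157, Gm16152 and Rai2, at 2.38 to 5.64, and 5 of the 12 were also called with the neighbours removed. Dlx1as is antisense to Dlx1, a factor of GABAergic neurons. Strand handling was not stated in the sources used here, and the level of Dlx1as is not read as that of Dlx1. These nuclei are few, 106 with Crhr1 and 44 with Crhbp, most with 1 UMI.

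**Figure D4:**
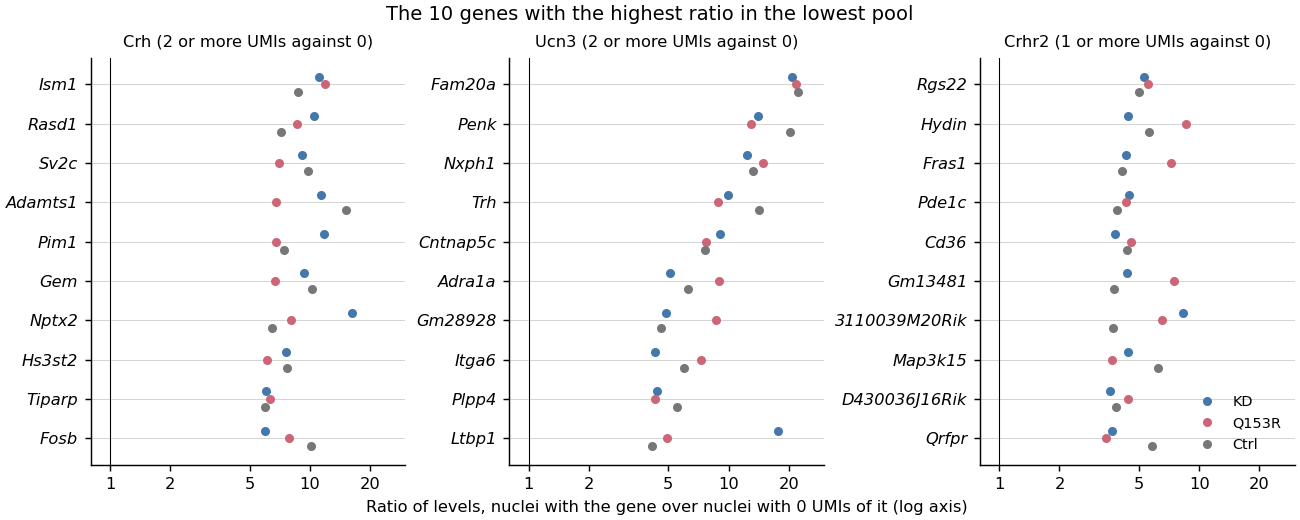
Ratio of the level in nuclei that hold Crh, Ucn3 or Crhr2 over that in nuclei with no UMI of it, on a log axis, for the 10 named genes of each. Points are the pools labelled KD, Q153R and Ctrl. Fam20a lies at 20.7 to 22.3 in nuclei with Ucn3 and Rgs22 at 4.98 to 5.55 in nuclei with Crhr2.

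A list of 49 genes of the pathway (G protein and adenylyl cyclases, CREB and its coactivators, corticosteroid receptors, peptide processing, activity genes and PVH factors) was followed next. It was chosen with earlier results of these data known. Its counts, here and between the pools below, are therefore a description beside the shares over all genes and not a test. In nuclei with Crh, 14 of the 44 tested were at 1.5-fold or more higher in all 3 pools and 4 were lower, against 3.93% and 15.9% of all 14133 genes. The median log2 ratio was 0.29 on the list and −0.33 over all genes. Among genes of peptide processing, Pcsk1, a prohormone convertase, was at 483.7 CPM against 119.8 CPM in nuclei without Crh (4.04, 3.67–4.435), Scg2 was at 2.90 (2.68–3.15) and Cpe, a carboxypeptidase, was at 2.25 (2.09–2.42). The activity-induced genes Fosb (8.04, 5.54–11.5), Nr4a1 (5.15, 4.34–6.08), Nr4a3 (4.64, 3.73–5.73), Fos (4.165, 3.075–5.55) and Npas4 (3.76, 3.05–4.598) were all higher. So were Creb3l1, a CREB-family factor, at 9.11 (5.365–15.01), Arnt2, a PVH factor, at 2.61, the mineralocorticoid receptor Nr3c2 at 2.34, Crem at 1.82, Gnas, the Gs alpha subunit, at 1.75, and Adcy5 at 1.655. The 4 lower genes were Adcy1 (0.255), the receptor kinase Grk3 (0.329), Adcyap1, which encodes PACAP (0.450), and Adcy9 (0.523).

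**Figure D5:**
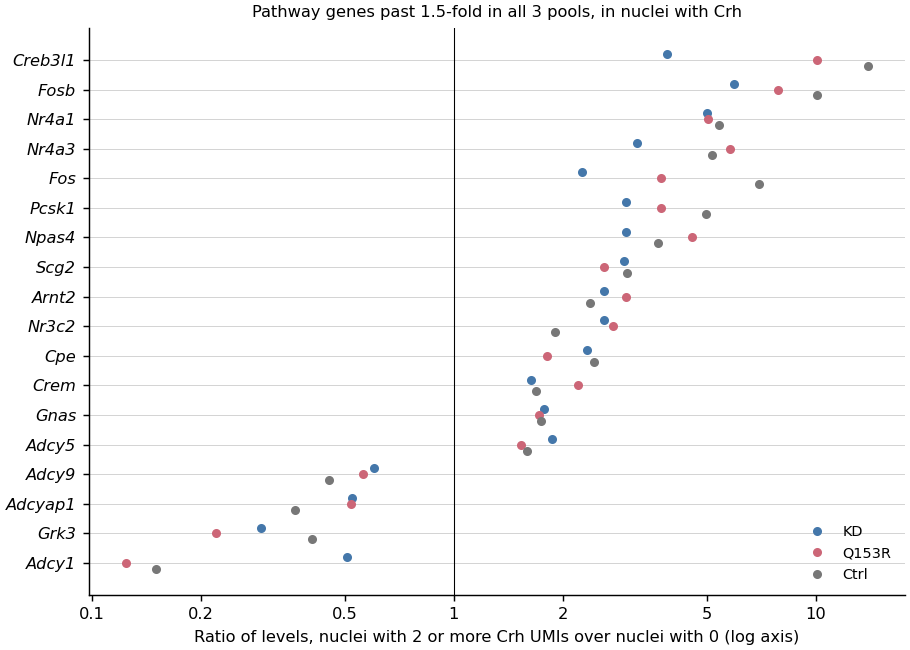
Ratio of the level in nuclei with at least 2 Crh UMIs over that in nuclei with none, on a log axis, for the 18 pathway genes past 1.5-fold in every pool. Points are the pools labelled KD, Q153R and Ctrl. The 14 higher genes reach 13.9 for Creb3l1 in Ctrl, and Adcy1 is lowest at 0.124 in Q153R.

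Nuclei with Ucn3 had 3 of the 44 genes higher and 5 lower, against 2.50% and 11.4% of all genes. Pcsk1 (2.28), the granin Chgb (2.175) and Pcsk2 (2.02) were higher, while Adcy8 (0.521), Fkbp5 (0.404), Cnr1 (0.257), Npas4 (0.131) and Pou3f2 (0.05002) were lower, the last on 1 UMI and Npas4 on 2. Nuclei with Crhr2 had 1 higher and 9 lower, against 2.45% and 6.76%. Cnr1, the cannabinoid receptor, was at 95.95 CPM against 50.4 CPM (1.90, 1.48–2.41). The 9 lower included Pcsk1 (0.235, 0.153–0.344), Adcy8 (0.206, 0.131–0.310), Arnt2 (0.523, 0.427–0.634) and the activity genes Npas4, Fos, Nr4a3 and Fosb, on 8, 4, 5 and 1 UMIs. Pou3f2, on 7 UMIs, and Creb3l1, with 0, made up the rest. Creb3l1 stood at 3.68 CPM in nuclei without Crhr2, and the interval of its ratio (0–1.36) includes 1. Nuclei with Crhr1 had 0 higher and 2 lower (Pcsk1 at 0.544, 0.419–0.695, and Fosb with 0 UMIs), against 1.04% and 4.90%. Nuclei with Crhbp had 0 in either direction, against 1.11% and 14.3%. The 5 lower genes with Ucn3, the 1 higher with Crhr2 and the 2 lower with Crhr1 are near the shares over all genes. So are the counts of 0 higher with Crhr1 and Crhbp, and none of these counts is read as a result about the list. Pcsk1 was thus at 483.7 CPM in nuclei with at least 2 Crh UMIs and 321.8 CPM in those with at least 2 Ucn3 UMIs. It was at 79.8 CPM in nuclei with at least 1 Crhr1 UMI and 34.65 CPM in those with at least 1 Crhr2 UMI. The thresholds differ between ligands and receptors, and their part in this gap was not tested.

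Between the pools, few of the 44 tested pathway genes moved past 1.5-fold, and those that did were higher. For KD over Ctrl, 2 were higher and 0 lower, against 2.46% and 2.87% of all genes, with a median log2 ratio of −0.01 on the list and −0.05 over all genes. They were Nr4a3, at 27.9 CPM in the KD pool against 14.4 CPM in the Ctrl pool (1.94, 1.56–2.42), and Otp. For Q153R over Ctrl, 5 were higher and 0 lower, against 2.12% and 3.33%, with medians of 0.08 and −0.02. Apart from Otp these were activity genes. Nr4a3 stood at 38.9 CPM in nuclei labelled Q153R against 14.4 CPM in Ctrl (2.71, 2.21–3.34), and Fos at 22.0 CPM in Q153R against 10.6 CPM in Ctrl (2.085, 1.62–2.69). Fosb stood at 10.7 CPM in Q153R against 5.43 CPM in Ctrl (1.97, 1.37–2.83) and Npas4 at 44.8 CPM in Q153R against 28.8 CPM in Ctrl (1.56, 1.325–1.83). For Q153R over KD, 2 were higher and 0 lower, against 3.08% and 3.59%, namely Fos (1.54, 1.205–1.98) and Fosb (1.61, 1.12–2.34), with medians of 0.10 and 0.02. The counts of 2 of 44 are near the share over all genes and are not read as a result about the list.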

How the data were processed

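The authors deposited raw UMI counts for 31053 genes and 3 hashtag rows, with barcode and feature names, per the file headers. The submitters' processing notes name Cell Ranger 6.0.0 and mm10, and the matrix header names 7.0.0. Annotation and intron settings were not given in the sources used here. Of 6173 barcodes, 6157 had 500 genes or more and less than 5% mitochondrial UMIs, and the 4904 of these with exactly 1 tag were kept, a tag being at or over 61 (KD), 37 (Q153R) or 105 (Ctrl) UMIs. Those with no tag (129) were left out, and those with more than 1 (1124) were removed as doublets, and doublets within a pool stayed. A nucleus was glial-marker at 3 or more glial and vascular UMIs that exceeded its neuron-marker UMIs. Of the glial and vascular marker genes, Cldn5 and Ccdc153 were at 0 in the 144 glial-marker nuclei.

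Levels (CPM) are UMIs summed over nuclei over summed library size (numpy 2.4.6, pandas 2.3.3), with exact Poisson, Clopper-Pearson and conditional intervals (scipy 1.17.1). Limits for a share or level at 0 are those of 3 counts. Thinning to 2000 UMIs left out 329 neurons. Pools were assigned from the 3 hashtag rows of this matrix. Named were the members, up to 10 genes alike to each, and pathway genes past 1.5-fold. Fold and interval code was tested on simulated data. Alternatives were tag threshold, doublet rule, filters, weighting, depth, class thresholds and sex. The members, lists and rules were chosen with earlier results of these data known, the bands after the data were seen.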

Additional observations from a re-analysis of the deposited data

Results flagged for a closer look

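Barcodes outside the compared pools also held UMIs of these genes. In the 1124 barcodes with more than 1 tag, Crh stood at 35.5 CPM (32.5–38.65), Ucn3 at 16.35 CPM (14.35–18.55), Crhr1 at 5.22 CPM (4.12–6.53), Crhr2 at 4.34 CPM (3.34–5.54) and Crhbp at 1.56 CPM (0.989–2.34). In the 129 barcodes with no tag, Crh stood at 48.3 CPM (26.4–81.0) from 14 UMIs. There Ucn3 and Crhr1 had 1 UMI each (3.45 CPM) and Crhr2 and Crhbp 2 each (6.90 CPM), below the level that 3 counts would give in those barcodes, 10.35 CPM. The value of Crh with no tag, and those of all 5 genes with more than 1 tag, lie above the level that 3 counts would give, which is 0.2035 CPM with more than 1 tag.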

How the results depend on the processing

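Of the values compared between pools, 144 lay within the counting interval of the main value (stayed) and 6 outside it (moved). A wide interval takes in large changes, so a value that stayed may still differ in size or direction. Crhbp KD over Ctrl stayed by this rule, at 0.550 (0.234–1.20) in the main setting and 1.15 when thinned to 2000 UMIs. The alternative with no filter on genes or mitochondrial UMIs gave nearly the main values, for pools and for classes, and adds little to these counts. With neighbours of multiple-tag nuclei removed (583 barcodes, 517 of them neurons), Ucn3 KD over Ctrl was 0.362. With equal weights per nucleus it was 0.352, and Ucn3 Q153R over Ctrl was 1.08. Thinned to 2000 UMIs, Crhr1 was 0.3205 for Q153R over Ctrl and 0.349 for Q153R over KD, and Crhbp was 0.488 for Q153R over KD. Of the class ratios, 194 stayed, 15 moved and 1 reversed. With thresholds halved, Crh in the Avp class was 2.27, which reversed it, and Crh was 0.377 in Oxt, 0.301 in Trh and 1.68 in neurons of no class. With thresholds doubled, Crh was 0.400 in Avp, 0.417 in GABA and 3.87 in no class, Ucn3 0.1065 in Sst and 0.211 in no class, Crhr1 0 in Trh, and Crhbp 0 in Avp and 12.1 in GABA. With neighbours removed, Ucn3 was 0.1125 in Sst, Crhr1 0 in Avp and Crhr2 0.190 in Sst, and in nuclei of 1 class alone Ucn3 was 0.0714 in Sst. Of co-detection values 71 stayed and 1 moved, which says little because most intervals of pairs are wide. Crhr1 with Crhbp stayed by this rule, at 0 (0–31.7) at 2000 UMIs and 3.28 at full depth. Of the counts of genes alike, which do not say whether the genes are the same, 11 stayed and 6 moved: Crh 122 at 1 UMI or more, and at 50 UMIs per gene Ucn3 160, Crhr1 34, Crhr2 140 and Crhbp 53, and Crhbp 24 with neighbours removed. At 50 UMIs per gene more genes enter. For the other moves the cause was not tested, apart from Crh by Avp, where the bands show the level changing along Avp.

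The neighbour rule removed nuclei with 14% or more multiple tags among neighbours, below the 18.3% among all barcodes. Removing neighbours for genes alike, 1 class alone there, and the ligand and receptor alternatives were chosen after seeing the data. No paired analysis was possible because each genotype is 1 pool, and for that reason no replicate was left out. Depth limits the receptors and Crhbp most, with 129 UMIs or fewer each.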
